A study of Gloeophyllum trabeum with 9 samples.

Results

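The genes described here are 10 of the 11846 gene models measured in the brown rot fungus Gloeophyllum trabeum, namely 8 genes of glycoside hydrolase family 3 (GH3), annotated in the study as exo-beta-glycosidases, and 2 genes of family 1 (GH1), annotated as beta-glucosidases. They have the protein identifiers 44548, 54923, 69843, 71534, 72986, 75899, 122002 and 141438 (GH3) and 141319 and 81012 (GH1), and are written below with the prefix Glotr. They were selected on their expression against glucose, because each was called higher or lower on cellulose or on cedar than on glucose. The differences of the 10 from glucose are therefore given as a description. Calls and adjusted p values against glucose are printed further below, but for the 10 they are no independent evidence. The same holds for the genes of these families that the selection left out. The study lists 10 GH3 and 5 GH1 genes, and the remaining 5, Glotr_12971 and Glotr_138774 of GH3 and Glotr_49126, Glotr_49308 and Glotr_106990 of GH1, are shown beside the 10 to complete the families.

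Mycelium of strain NBRC6430 was cultured in shaken liquid medium with a single carbon source. Glucose cultures were harvested after 3 days, and those on microcrystalline cellulose or Cryptomeria japonica (Japanese cedar) wood flour, both nanofibrillated, after 5 days. There were 3 biological replicates and 3 RNA-seq libraries for each carbon source. Glucose thus differed from both substrates in culture time as well as in carbon source, and the effects of these cannot be told apart. Levels are given as TPM, a relative transcript abundance that is corrected for transcript length, so that those of different genes can be set side by side.

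Cellulose is broken down outside the hypha by enzymes that cut the chain internally or oxidatively, and the short oligosaccharides that are released, cellobiose above all, are split to glucose by beta-glucosidases. GH3 and GH1 enzymes both remove single sugars from the non-reducing end of such oligosaccharides and keep the configuration of the sugar they release. In fungi, many GH3 enzymes are secreted, and the family also holds beta-xylosidases and other exo-acting enzymes, whereas GH1 beta-glucosidases are often found inside the cell. Brown rot fungi have a reduced set of cellulases, and generally lack the processive cellobiohydrolases that white rot fungi use. The substrate of each of the 10 enzymes was not measured here.

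All 10 genes had a measured value above 0 in each of the 9 libraries and passed the filter on low values in each comparison. The deposited TPM summed to between 678148 and 1680448 per library, with the highest sums on cellulose, because the authors rescaled TPM between libraries after it was computed. How many reads each value rests on is unknown, and precision was taken from the spread of the 3 libraries of a group. This scaling matters for every difference below. When all libraries were instead set to an equal sum, the median log2 difference of all gene models moved from -0.09 to -1.09 for cellulose against glucose, from 0.04 to -0.12 for cedar against glucose, and from 0.05 to 0.90 for cedar against cellulose.

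The highest GH3 level on both substrates was that of Glotr_72986. It was at 13.3, 11.9 and 10.02 TPM in glucose replicates 1, 2 and 3, at 855, 783 and 543 TPM on cellulose, and at 225, 178 and 241 TPM on cedar. The 3 groups did not overlap, and every cellulose library was above every cedar library. Its mean was 727 ± 164 TPM (SD, n = 3) on cellulose, which ranked it 142nd of all gene models there, against 11.8 ± 1.67 TPM on glucose, where it ranked 5307th. The log2 difference from glucose was 5.87 ± 0.21 (SE) on cellulose and 4.13 ± 0.15 on cedar.

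Glotr_141438 followed the same order. Its level was 11.3, 11.6 and 9.35 TPM on glucose, 414, 453 and 543 TPM on cellulose, and 147, 150 and 164 TPM on cedar. On cellulose its range met that of Glotr_72986 at one end, since the lowest Glotr_72986 value was 542.8 TPM and the highest Glotr_141438 value 543.1 TPM, both in cellulose replicate 3. On cedar the ranges of these genes did not overlap. The log2 difference of Glotr_141438 from glucose was 5.38 ± 0.16 (SE) on cellulose and 3.78 ± 0.11 on cedar.

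**Figure D1:**
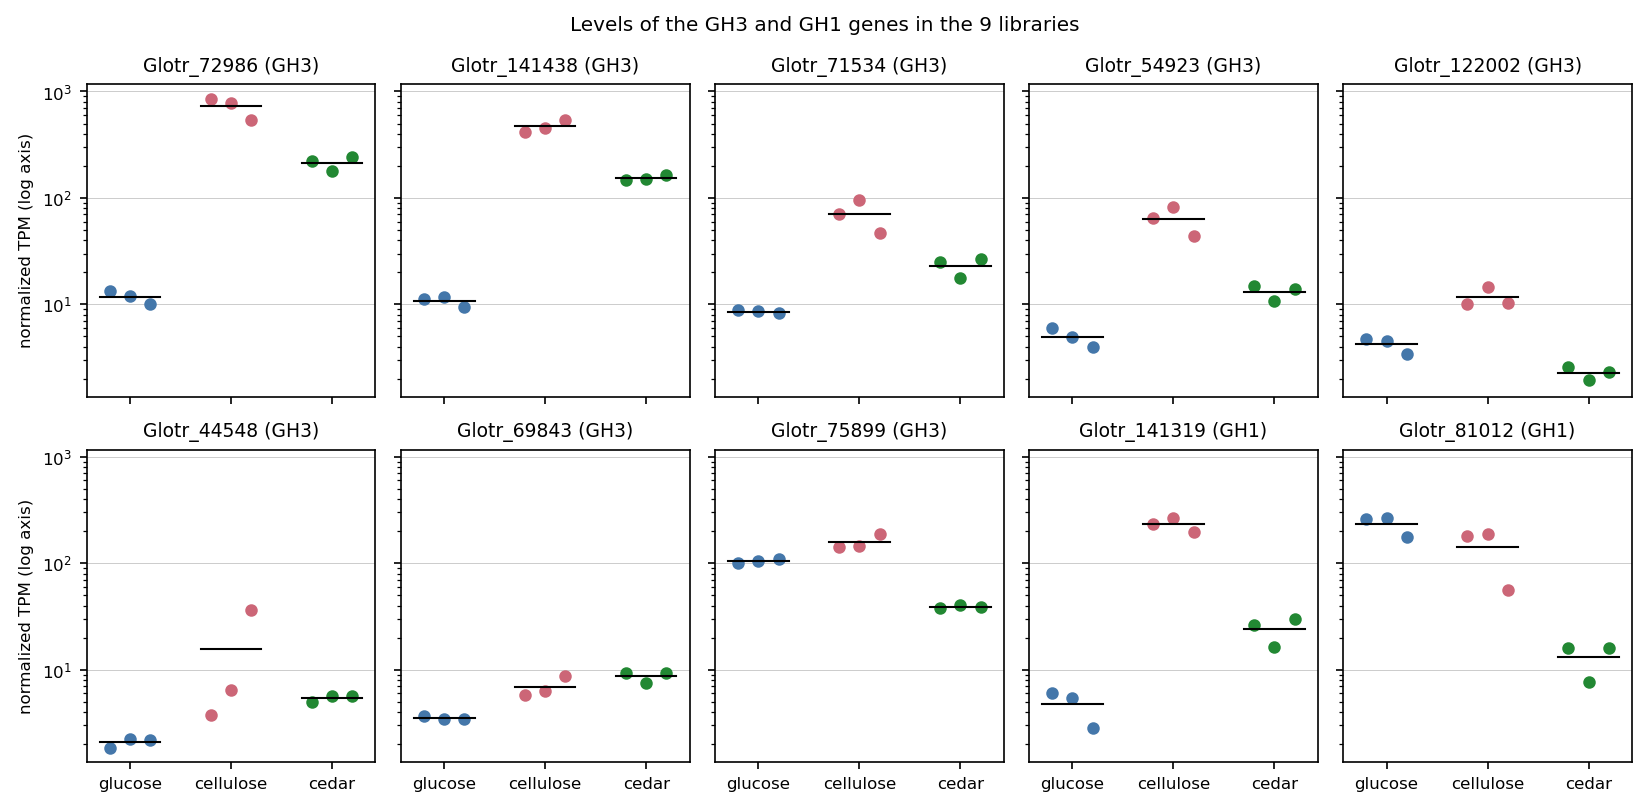
Normalized TPM (log axis) of the 8 GH3 and 2 GH1 genes in the 9 libraries, with 1 point for each library in replicate order and a bar at the mean of the 3 libraries of a carbon source. Glotr_72986, Glotr_141438 and Glotr_141319 are lowest on glucose and highest on cellulose, with every cellulose library at 195 TPM or above, and Glotr_81012 and Glotr_75899 are lowest on cedar.

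Glotr_54923 and Glotr_71534 had middling levels and resembled each other. Glotr_54923 was at 6.01, 4.95 and 3.99 TPM on glucose, at 64.5, 81.3 and 44.2 TPM on cellulose, and at 14.9, 10.7 and 14.0 TPM on cedar. Glotr_71534 was at 8.78, 8.65 and 8.24 TPM on glucose, at 70.1, 95.4 and 46.5 TPM on cellulose, and at 24.8, 17.7 and 26.9 TPM on cedar. For both genes every cellulose library was above every cedar library, and every cedar library above every glucose library. Glotr_71534 was the higher gene in each of the 9 libraries. The TPM ratio of Glotr_54923 to Glotr_71534 was nearest to 1 on cellulose, at 0.919, 0.852 and 0.950 in replicates 1, 2 and 3, and averaged 0.575 ± 0.0473 on cedar and 0.580 ± 0.101 on glucose (SD, n = 3).

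The other low GH3 genes differed from this order, each in its own way. Glotr_69843 was at 3.67, 3.41 and 3.47 TPM on glucose, at 5.78, 6.25 and 8.81 TPM on cellulose, and at 9.32, 7.43 and 9.35 TPM on cedar. It was the only one of the 10 with a higher mean on cedar than on cellulose, although the ranges overlapped. Glotr_122002 was at 4.77, 4.48 and 3.40 TPM on glucose, at 10.2, 14.4 and 10.3 TPM on cellulose, and at 2.59, 1.95 and 2.32 TPM on cedar, so that its cedar libraries were below those on glucose. Glotr_44548 was at 1.83, 2.21 and 2.20 TPM on glucose and at 4.99, 5.64 and 5.70 TPM on cedar. On cellulose it was at 3.76, 6.51 and 36.2 TPM, and the mean of 15.5 ± 18.0 TPM (SD, n = 3) rests on replicate 3.

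Glotr_75899 was the GH3 gene with the highest level on glucose. It was at 100.2, 106 and 109 TPM there, at 142, 145 and 190 TPM on cellulose and at 37.8, 40.3 and 38.7 TPM on cedar. The groups did not overlap, with cellulose highest and cedar lowest. Its log2 difference from glucose was 0.58 ± 0.15 (SE) on cellulose and -1.42 ± 0.09 on cedar. The direction of the difference on cellulose depends on the scaling, since it was -0.58 when all libraries were set to an equal sum.

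The GH1 genes of the 10 differed widely in their levels on glucose. Glotr_141319 was at 6.07, 5.47 and 2.81 TPM on glucose, at 234, 267 and 195 TPM on cellulose, and at 26.6, 16.3 and 29.6 TPM on cedar. Each substrate group was above glucose in every library, and the log2 difference was 5.51 ± 0.28 (SE) on cellulose and 2.24 ± 0.32 on cedar. Glotr_81012 was at 259, 264 and 178 TPM on glucose, the highest of all 15 family genes there, at 179, 188 and 56.6 TPM on cellulose, and at 16.02, 7.59 and 15.8 TPM on cedar. Its cedar libraries were all below those of the other carbon sources, and the glucose and cellulose ranges overlapped. The log2 difference of Glotr_81012 from glucose was -0.89 ± 0.47 on cellulose and -4.15 ± 0.30 on cedar.

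**Figure D2:**
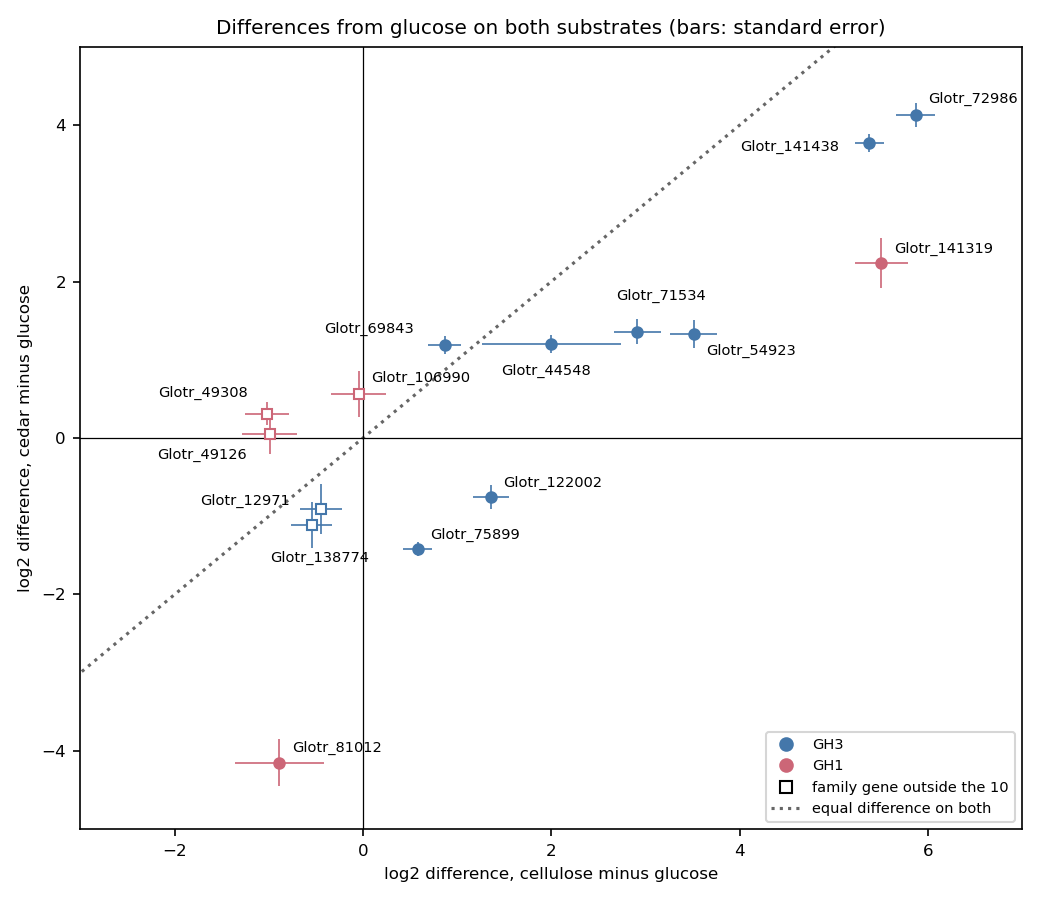
Log2 difference from glucose on cellulose (horizontal) and on cedar (vertical) of the 15 GH3 and GH1 genes, with standard errors as bars, filled points for the 10 genes and open squares for the other 5 of the families. Both axes use the same 3 glucose libraries, so the points are no independent evidence of likeness between the substrates, and 9 of the 10 filled points lie below the dotted line of equal difference, the other being Glotr_69843.

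By the calling rule (a Benjamini-Hochberg adjusted p under 0.01 in limma, with mean TPM at least 2 times as high, or at most 0.5 times as high), 6 of the 10 were called higher on cellulose than on glucose and none lower, beside 10.4% of all gene models called higher and 13.9% called lower. On cedar 7 were called higher than on glucose and 2 lower, beside 15.2% and 15.7% of all gene models. These counts restate how the genes were chosen. With equal sums, 5 of the 10 were called higher on cellulose, and the log2 difference of Glotr_122002 there was 0.27 ± 0.17 (SE) in place of 1.36. Over all gene models, 353 of 10491 were then called higher on cellulose and 5932 lower. With the deposited scaling, the genes called on cellulose were Glotr_54923, Glotr_71534, Glotr_72986, Glotr_122002, Glotr_141438 and Glotr_141319. Those called higher on cedar were the same without Glotr_122002, together with Glotr_44548 and Glotr_69843, and those called lower were Glotr_75899 and Glotr_81012. Nearest to the ratio threshold, Glotr_122002 was inside it on cellulose with a ratio of mean TPM of 2.76 and Glotr_69843 on cedar with 2.47. Just outside were Glotr_69843 on cellulose, with 1.98, and Glotr_122002 on cedar, with 0.542. The direction for Glotr_69843 on cellulose depends on the scaling. Its log2 difference from glucose there was 0.87, but -0.18 with equal sums and 1.13 with quantile normalization.

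Of the other 5 family genes, none was called against glucose on either substrate. That absence of calls restates the selection, since these 5 are the family genes left over after choosing on calls against glucose. Their values, ratios and adjusted p values against glucose are therefore given as a description. Glotr_138774 was at 84.7, 80.6 and 52.7 TPM on glucose, at 44.0, 58.4 and 44.7 TPM on cellulose and at 39.0, 21.4 and 42.2 TPM on cedar. Its cedar to glucose ratio of 0.470 was past the ratio threshold, but the adjusted p was not. Glotr_12971 averaged 29.1 ± 4.63 TPM on glucose, with 21.6 ± 5.50 TPM on cellulose and 16.2 ± 6.57 TPM on cedar (SD, n = 3 each). The 3 remaining GH1 genes had between 0.21 and 6.20 TPM in any library, and each of them was also past the ratio threshold once without passing the test. On cellulose, Glotr_49308 and Glotr_49126 had ratios to glucose of 0.436 and 0.438 (limma adjusted p = 0.0105 and 0.0286), with every cellulose library below every glucose library. On cedar, Glotr_106990 had a ratio of 2.19 (adjusted p = 0.135 by limma), and its groups overlapped.

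The families were summed in each library to see which genes supplied most of the transcripts. The GH3 sum was 268, 264 and 227 TPM on glucose, 1632, 1669 and 1482 TPM on cellulose, and 526, 442 and 563 TPM on cedar. The mean sum was 6.31 times that of glucose on cellulose and 2.02 times on cedar. The GH1 sum was 273, 276 and 192 TPM on glucose, 416, 458 and 257 TPM on cellulose, and 53.2, 32.5 and 56.8 TPM on cedar, with ratios to glucose of 1.53 and 0.193. When all libraries were set to an equal sum, the GH3 ratio on cellulose was 2.83, and the GH1 ratio on cellulose was 0.689 and so lay on the other side of 1. The ratio of the GH3 to the GH1 sum within a library, which does not depend on a scaling factor, averaged 1.04 ± 0.123 in the glucose libraries, 4.44 ± 1.15 in those on cellulose and 11.1 ± 2.13 in those on cedar (SD, n = 3 each). Its ranges in the 3 groups did not overlap.

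The leading GH3 gene was a different one on glucose than on the substrates. On glucose, Glotr_75899 held 37.4 to 48.1% of the GH3 sum and Glotr_138774 held 23.3 to 31.6%, and with Glotr_12971 they made up 81.9% ± 0.360 (SD, n = 3). Glotr_72986 and Glotr_141438 together held 8.90% ± 0.330 there. On cellulose this pair held 75.0% ± 2.40 and on cedar 72.3% ± 1.83, with ranges of 73.3 to 77.8% and 70.6 to 74.3% that overlapped. The GH3 sum on cedar was thus less than on cellulose while the share of this pair lay within the same few percentage points. Within the pair, the TPM ratio of Glotr_72986 to Glotr_141438 was 1.599 ± 0.546 on cellulose and 1.40 ± 0.180 on cedar.

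In GH1, Glotr_81012 held 92.7 to 95.6% of the sum on glucose. On cellulose Glotr_141319 held 56.2 to 75.9% and Glotr_81012 22.0 to 43.1%, and on cedar they held 49.9 to 52.2% and 23.3 to 30.1%. Within a library, the TPM of Glotr_141319 over that of Glotr_81012 averaged 0.0200 ± 0.00387 for glucose, 2.06 ± 1.20 for cellulose and 1.89 ± 0.245 for cedar (SD, n = 3 each). Every library on a substrate had more Glotr_141319 than Glotr_81012, and every glucose library the reverse. On cedar neither gene exceeded 29.6 TPM, whereas on cellulose neither was below 56.6 TPM.

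**Figure D3:**
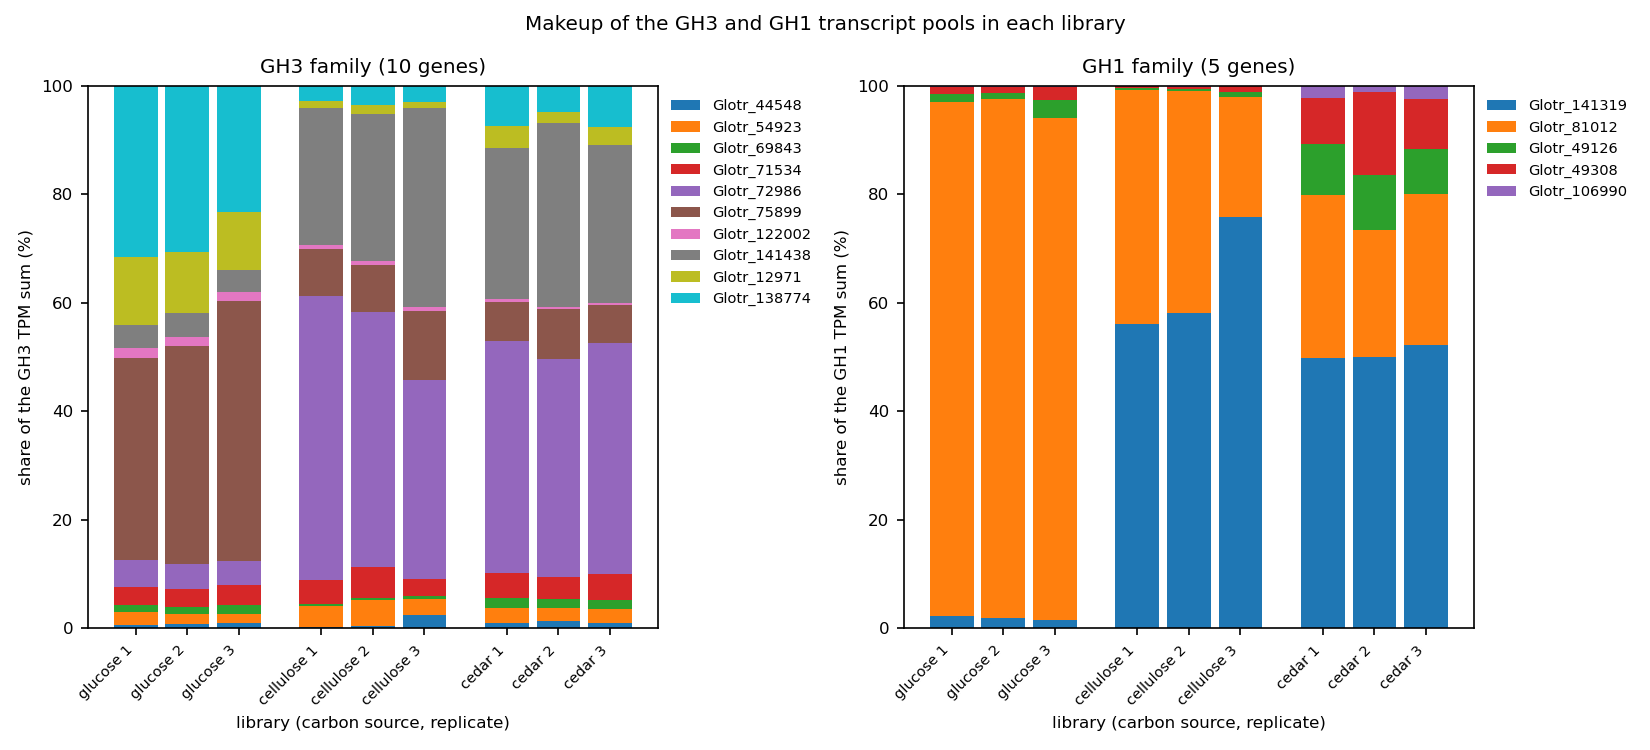
Share (%) of each gene in the summed TPM of its family, for the 10 GH3 genes (left) and the 5 GH1 genes (right), with 1 stacked bar for each library. Glotr_72986 and Glotr_141438 take 70.6 to 77.8% of the GH3 sum in the 6 substrate libraries, and Glotr_81012 takes 92.7 to 95.6% of the GH1 sum on glucose.

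The direct comparison of cedar with cellulose, both at 5 days, was the contrast that had not been used to choose the genes, and it was tested over 10503 gene models. It uses the same substrate libraries as the selection and is therefore not wholly independent of it. Of the 10 genes, 8 were called lower on cedar and none higher, where 5.95% of all gene models were called lower and 10.7% higher. The median log2 difference of the 10 was -1.87, against 0.05 for all gene models. When all libraries were set to an equal sum, 5 of the 10 were called lower and 1 higher, and the calls over all gene models were split into 4897 higher and 141 lower in place of 1124 and 625. The median of all gene models was then itself at 0.90. Which of the scalings is nearer to the true amounts was not tested.

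The greatest differences were those of the GH1 genes. Glotr_141319 had a log2 difference of -3.27 ± 0.25 (SE) between cedar and cellulose (limma, adjusted p = 0.000608), with mean TPM of 232 and 24.2. Glotr_81012 had one of -3.26 ± 0.52 (adjusted p = 0.00377 by limma), with mean TPM of 141 and 13.1. Its lowest cellulose library, replicate 3, at 56.6 TPM, was still above its highest cedar library, at 16.02 TPM. The call of Glotr_81012 was lost on leaving out any library except cellulose replicate 3, which happened in 5 fits with an adjusted p of up to 0.0161.

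Among the GH3 genes, Glotr_54923 had a log2 difference of -2.19 ± 0.25 (SE; limma adjusted p = 0.00131), Glotr_122002 of -2.11 ± 0.18 (adjusted p = 0.000697) and Glotr_75899 of -2.003 ± 0.16 (adjusted p = 0.000608). These 3 kept their calls when any single library was left out and under each of the other scalings. With replicate number as a block in the fit, Glotr_54923 was not called (limma adjusted p = 0.0105), whereas Glotr_122002 and Glotr_75899 were. Glotr_72986 had a log2 difference of -1.74 ± 0.24 (SE; limma adjusted p = 0.00228), Glotr_141438 of -1.602 ± 0.17 (adjusted p = 0.00115) and Glotr_71534 of -1.55 ± 0.29 (adjusted p = 0.00668). With equal sums the last 3 had log2 differences of -0.76, -0.62 and -0.58 and were not called. Without cedar replicate 1 or without cedar replicate 3, Glotr_72986 was not called (adjusted p up to 0.0126), and Glotr_71534 lost its call on leaving out any library except cellulose replicate 3 (adjusted p up to 0.0248).

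The other 2 of the 10 did not pass the test. Glotr_69843 had a log2 difference of 0.32 ± 0.19 (SE; limma adjusted p = 0.214), with a 95% interval of -0.13 to 0.77 that excludes a fall of the size seen in the called genes. With equal sums its difference was 1.23 and it was called higher. Glotr_44548 had a log2 difference of -0.80 ± 0.73 (limma adjusted p = 0.412), with an interval of -2.54 to 0.94. Without cellulose replicate 3 its difference was 0.12.

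**Figure D4:**
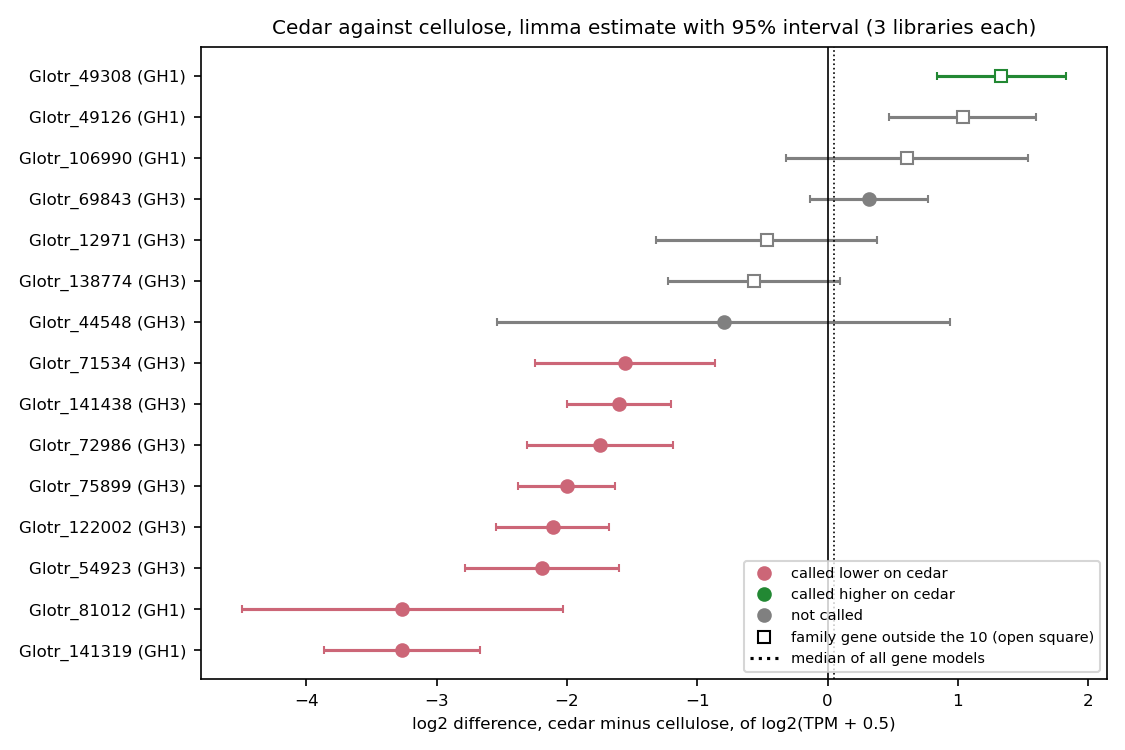
Limma's log2 difference, cedar minus cellulose, with its 95% interval for the 15 GH3 and GH1 genes, ordered by size, with 3 libraries for each carbon source. The 8 called lower (red) lie between -3.27 and -1.55, the 5 family genes outside the 10 (open squares) between -0.56 and 1.33, and the dotted line marks the median of all gene models at 0.05. The split into the 10 and the other 5 was made on calls against glucose.

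The 5 other family genes had no lower call in this comparison. Glotr_49308 was at 1.28, 1.43 and 2.41 TPM on cellulose and at 4.59, 4.97 and 5.22 TPM on cedar, and rose by 1.33 ± 0.21 (SE, log2; limma adjusted p = 0.00361). Glotr_49126, at 1.43, 1.61 and 2.63 TPM on cellulose and at 4.94, 3.33 and 4.80 TPM on cedar, had a difference of 1.04 ± 0.24 that missed the threshold (adjusted p = 0.0134 by limma). The RefSeq annotation, which is of strain ATCC 11539 and not of NBRC6430, places these GH1 genes side by side, 668 bases apart, with spans of 863 and 785 bases where those of Glotr_141319 and Glotr_81012 are 2659 and 2833. Glotr_138774 and Glotr_12971 of GH3 had differences of -0.56 and -0.47 (limma adjusted p = 0.143 and 0.326).

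The enzymes that act before the beta-glycosidases were counted from a list of 14 genes of endoglucanases (GH5_5, GH12), GH131 glucanase, lytic polysaccharide monooxygenases (AA9), xylanases (GH10) and mannanases (GH5_7). The list was chosen with earlier results of these data known, so its counts are no independent evidence. On cellulose 9 of the 14 were called higher than on glucose and 1 lower, with a median log2 difference of 4.81, and on cedar 9 and 1, with a median of 2.56. Of all gene models, 10.4% were called higher and 13.9% lower on cellulose, and 15.2% and 15.7% on cedar. In cedar against cellulose, 4 were called lower and 1 higher, beside 5.95% and 10.7% of all gene models, and the median was -2.08. The 4 lower were the endoglucanases Glotr_63180 and Glotr_138821, the xylanase Glotr_46499 and the mannanase Glotr_135369, with log2 differences of -5.48, -5.89, -4.58 and -1.81. The xylanase Glotr_46499 averaged 2321 TPM on cellulose and 106 TPM on cedar. No GH3 or GH1 gene differed between the substrates by as much as these endoglucanases and this xylanase did in their point estimates, and the difference between the lists was not tested. Glotr_57704, Glotr_63531, Glotr_140289 and Glotr_110405 of the list also had every cedar library below every cellulose library. Their log2 differences were -2.67, -3.82, -2.94 and -2.36, and they missed the call (limma adjusted p = 0.0324, 0.0169, 0.0639 and 0.0421). Replicates of the list spread widely, as with Glotr_63180 on cedar, at 31.2 to 404 TPM.

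The patterns over the 9 libraries were compared by Pearson's r of log2(TPM + 0.5), which mostly reads the means of the 3 carbon sources and is given as a description. Of the 45 pairs among the 10 genes, 10 had r over 0.9, all among Glotr_54923, Glotr_71534, Glotr_72986, Glotr_141438 and Glotr_141319. The closest were Glotr_54923 and the GH1 gene Glotr_141319 (r = 0.994), and Glotr_72986 and Glotr_141438 (r = 0.993). In deviations from the group means the first pair had r = 0.80 and the second r = -0.23, so that the latter shared the order of the carbon sources but not the variation between replicates. Glotr_75899 was most like Glotr_122002 among the 10 (r = 0.88), and Glotr_81012 most like Glotr_75899 (r = 0.80). In deviations from the group means these pairs had r = -0.49 and r = -0.92, so their likeness too lay in the means of the carbon sources.

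Among 9760 other gene models with a mean of at least 1 TPM, those with the pattern most like Glotr_72986 were Glotr_139970, Glotr_48439 and Glotr_69004 (r = 0.998, 0.998 and 0.997), and for Glotr_72986 38 gene models had r over 0.99. For Glotr_141438 they were Glotr_122815, Glotr_46310 and Glotr_139970 (r = 0.997, 0.996 and 0.996). Glotr_139970 thus stood among the nearest of both, although it averaged 10.3, 36.4 and 25.0 TPM on glucose, cellulose and cedar. It was near their level on glucose, at 11.8 and 10.8 TPM, and far below them on cellulose and cedar. The gene nearest to Glotr_71534 was the xylanase Glotr_46499 (r = 0.993), whose level on cellulose was far higher. Nearest to Glotr_141319 was Glotr_124758 (r = 0.998), which averaged 88.8 TPM on glucose, 629 TPM on cellulose and 181 TPM on cedar. Glotr_54923 was most like Glotr_132572 (r = 0.996), which averaged 26.3 TPM on glucose, 101 TPM on cellulose and 44.1 TPM on cedar, and Glotr_122002 most like Glotr_134903 (r = 0.993), with 7.06, 9.54 and 5.88 TPM. Of the genes that were lowest on cedar, Glotr_81012 was most like Glotr_61165, Glotr_79979 and Glotr_109763 (r = 0.991, 0.989 and 0.988), and Glotr_75899 most like Glotr_109659, Glotr_76302 and Glotr_76898 (r = 0.986, 0.986 and 0.984). The function of these neighbours in pattern is not given here.

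Replicates of a carbon source did not vary alike for all 10 genes. Cellulose replicate 3 was the lowest of its group for 5 of them and the highest for 4, with log2 deviations from the group mean between -1.13 for Glotr_81012 and 1.83 for Glotr_44548. Cedar replicate 2 was the lowest of its group for 7, with a median deviation of -0.23, and glucose replicate 3 was the lowest for 7, with a median of -0.20. Without cellulose replicate 3 and cedar replicate 2, a setting chosen after seeing the data, 8 of the 10 were again called lower on cedar than on cellulose. Over all gene models 845 were then called lower and 1142 higher.

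**Figure D5:**
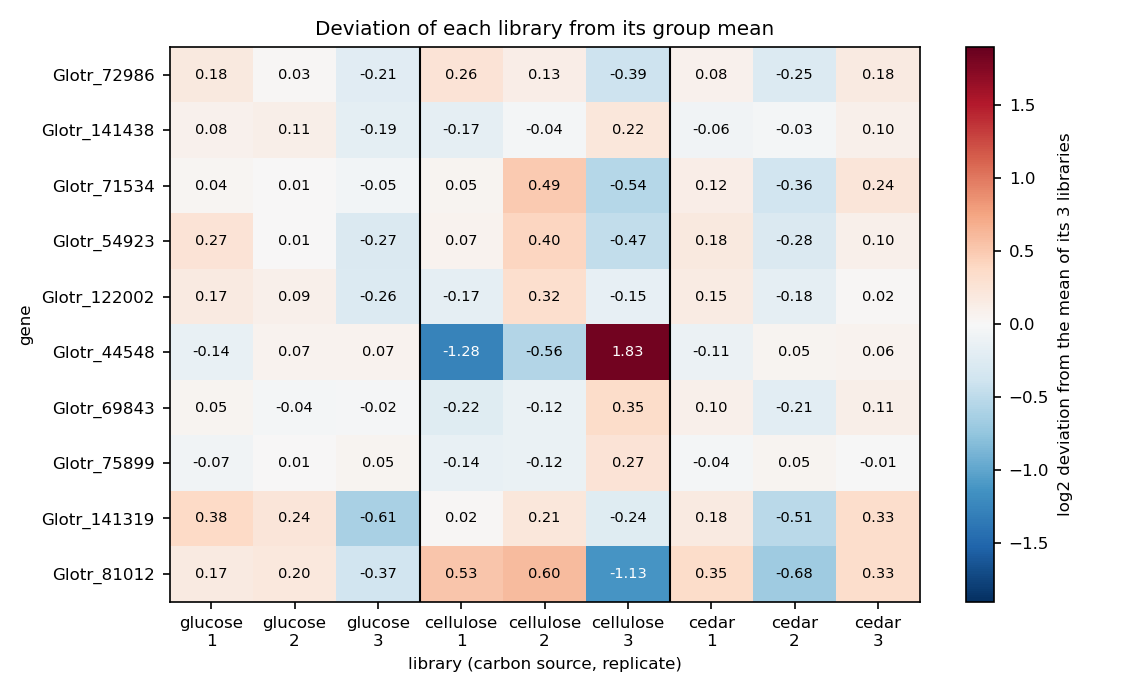
Log2 deviation of each library from the mean of its 3 libraries for the 10 genes, with red above and blue below the mean and the value in each cell. Cellulose replicate 3 holds both the highest value, 1.83 for Glotr_44548, and a low one of -1.13 for Glotr_81012, and cedar replicate 2 is low for most genes.

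All 10 genes, and 14 of the 15 of the families, were placed by the number in their locus tag in the RefSeq annotation of strain ATCC 11539. Distances and neighbours are those of that strain, taken from the order and coordinates of an annotation without contig names, and were not examined in NBRC6430. Glotr_44548 and Glotr_122002 lay close together, with 15726 bases and 5 gene models between them, and their patterns were unlike (r = 0.35). Distances between other pairs of the 10 were not measured. The gene model 2397 bases before Glotr_44548, Glotr_44561, was at 1.43, 3.02 and 15.4 TPM on cellulose, so that it too was high in replicate 3, and at no more than 4.14 TPM in the other carbon sources. Glotr_72986 overlaps the next gene model, Glotr_137209, by 240 bases in the annotation. That neighbour averaged 19.8, 15.7 and 9.63 TPM on glucose, cellulose and cedar, and did not share the pattern of Glotr_72986 (r = -0.53). The reads were assigned by strand, and reads that fit several gene models were divided among them by estimation, which adds an unknown error to genes with a near-identical copy.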

How the data were processed

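RNA-seq was made from 9 cultures, 3 for each of glucose, cellulose and cedar, grouped by the labels. The authors trimmed the reads with FaQCs, pseudoaligned them by strand to the JGI gene models with kallisto 0.44.0, and normalized TPM between libraries with sleuth 0.29.0. The deposited table holds this normalized TPM as a signal for every library, with no pooled column and 0 columns unused. The plan had assumed a fixed sum per library, which the values lack, and its test was kept.

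Each pair of carbon sources was fitted in limma 3.58.1 (R 4.3.3; lmFit and a trended eBayes, two-sided) on log2(TPM + 0.5), keeping gene models that reached 0.1 TPM in 3 or more of the 6 libraries, with p-values adjusted over all of them. Log2 differences are on this scale, which understates the change of low genes. The script was tested on simulated data with known changes. Sums, shares and correlations used Python 3.11.15, NumPy 2.4.6 and pandas 2.3.3, and figures matplotlib 3.10.9. Gene positions came from RefSeq assembly Glotr1_1 (strain ATCC 11539, not the strain cultured), without contig names.

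The genes named are the 10, the other 5 of the families, and the 3 nearest patterns of those called higher on cellulose or lower on cedar. The other enzymes are given by counts, naming those on which a result turns. Genes named for their position, and the calls named in the list of 14, were chosen after their values were seen. The members and lists were chosen with earlier results of these data known. Alternatives were other added values, filters, scalings, variance models and thresholds, all groups in 1 fit, a replicate block, and leaving out each library. Sleuth's own test was not used here.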

Additional observations from a re-analysis of the deposited data

Results flagged for a closer look

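For 8 of the 10 genes the difference from glucose was not the same on the 2 substrates, by the limma test of cedar minus cellulose. All 8 were lower on cedar, where 5.95% of all gene models were called lower and 10.7% higher. The count was 5 with equal sums or with quantile normalization, and 3 with the replicate block. The genes had been chosen on calls that used the same substrate libraries. The log2 differences were -3.27 for Glotr_141319, -3.26 for Glotr_81012, -2.19 for Glotr_54923, -2.11 for Glotr_122002, -2.003 for Glotr_75899, -1.74 for Glotr_72986, -1.602 for Glotr_141438 and -1.55 for Glotr_71534. For Glotr_122002 the substrates lay on opposite sides of glucose, with log2 differences from glucose of 1.36 on cellulose and -0.75 on cedar, and so did those for Glotr_75899, with 0.58 and -1.42. With all libraries set to an equal sum, the cellulose difference was 0.27 for Glotr_122002 and -0.58 for Glotr_75899, so that both substrates then lay below glucose for Glotr_75899. For the other 6 both differences had the same sign. With 3 libraries in each group, no formal outlier test was made.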

How the results depend on the processing

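The number of the 10 genes called lower on cedar than on cellulose was 8, and moved to 5 when all libraries were set to an equal sum, 5 with quantile normalization, and 5 to 8 when 1 library was left out. The lowest of these, 5, came without cedar replicate 1 and without cedar replicate 3. Lower calls over all gene models, 625 in the main run, were 141 with equal sums and 622 with quantile normalization. They were 208 without cedar replicate 1 and 149 without cedar replicate 3. With the replicate block 3 of the 10 were called lower, and over all gene models 285 were then called higher and 127 lower in place of 1124 and 625. The replicate numbers do not mark a shared source in the labels, and deviations of same-numbered libraries correlated between -0.42 and 0.20. Against glucose the counts under the block were unchanged, with 6 higher on cellulose, and 7 higher and 2 lower on cedar. With equal sums, 5 of the 10 in place of 6 were called higher on cellulose than on glucose, 1 of the 10 was called higher on cedar than on cellulose in place of 0, and 1 lower on cellulose than on glucose in place of 0 (Glotr_81012, -2.04). Over all gene models, 353 were then called higher on cellulose than on glucose and 5932 lower, of 10491 tested, in place of 1093 and 1463. A lower call under that scaling was therefore common to much of the table. The difference of Glotr_44548 between cedar and cellulose changed sign to 0.11 with equal sums, to 0.12 without cellulose replicate 3 (from -1.44 to 0.12 over the fits that left out 1 library), and to 0.09 without cellulose replicate 3 and cedar replicate 2. The GH3 sum over that on glucose was 2.83 on cellulose and 1.78 on cedar with equal sums, and 4.79 and 2.47 with quantile normalization, and the GH1 sum on cellulose 0.689 and 1.17. With no filter on low values, 755 gene models were called higher on cedar than on cellulose and 382 lower, and 6 of the 10 were lower. In cedar against cellulose, the other 9 genes kept their direction under each alternative run. The cause of these changes was not tested. The deposited values hold no read counts, so what depth limits is unknown.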
